A study of Homo sapiens with 12 samples.

Results

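The 9 genes HLA-B, HLA-C, HLA-E, HLA-F, B2M, TAP1, TAP2, TAPBP and NLRC5, which carry out or switch on peptide presentation by MHC class I, were followed through RNA-seq of an epirubicin-resistant breast cancer cell line, its parental line and BCRP-silenced cells. They were taken by symbol from the 58735 genes of both deposited tables, and all 9 were found in both. SK-BR-3 is an established HER2-positive human breast cancer line, and SK/EPI is the resistant line derived from it by stepwise exposure to rising epirubicin, an anthracycline. In SK/EPI-siBCRP cells BCRP, the drug pump encoded by ABCG2, was silenced by siRNA for 48 h, and SK/EPI-siNC cells received a negative-control siRNA. All 3 groups of SK/EPI background therefore share the selection in epirubicin, and both siRNA groups share the transfection with Lipofectamine RNAiMax. Each of the 4 groups had 3 libraries, prepared as triplicates. The labels do not say whether these were separate cultures, so p-values measure the spread between these libraries. SK/EPI is 1 resistant line set against 1 parental line.

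MHC class I molecules display peptides from inside the cell to cytotoxic T cells and natural killer cells. Proteasomes cut the peptides, the TAP1-TAP2 transporter moves them into the endoplasmic reticulum, tapasin (TAPBP) holds the empty molecule at the transporter, and a heavy chain (HLA-B, HLA-C, HLA-E or HLA-F here) leaves for the cell surface with beta-2-microglobulin (B2M). NLRC5 is the transactivator of class I genes. It does not bind DNA itself but joins the RFX, CREB/ATF and NF-Y factors at their promoters, and interferon, through IRF factors, raises NLRC5 and the other genes together.

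Stretches before the transcription start are shown because these factors act there, in genes whose RNA is compared below. All members lie in the MHC region of chromosome 6 except B2M on chromosome 15 and NLRC5 on chromosome 16. RefSeq windows of build GRCh38.p14 (250 bases before to 50 after the start) were given for 7 of the 9 members. HLA-E and NLRC5 are named only. The letters searched, on both strands, were those of an ISRE-like core bound by IRF factors (AANNGAAA), a CRE half-site bound by CREB/ATF (TGACG), the CCAAT box bound by NF-Y (CCAAT) and a kB-like site (GGNNTTNCC). The letters were chosen after the sequences were seen. Capitals mark each match inside the stretch shown, read 5′ to 3′ on the strand of the gene.
HLA-B, chr6:31357220-31357373, minus strand: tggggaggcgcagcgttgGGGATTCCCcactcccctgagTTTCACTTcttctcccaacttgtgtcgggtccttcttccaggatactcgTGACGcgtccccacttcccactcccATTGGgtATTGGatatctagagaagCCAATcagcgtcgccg
HLA-C, chr6:31272133-31272286, minus strand: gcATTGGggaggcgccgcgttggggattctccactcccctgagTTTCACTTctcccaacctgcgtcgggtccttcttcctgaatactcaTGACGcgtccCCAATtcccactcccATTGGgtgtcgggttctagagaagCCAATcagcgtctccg
B2M, chr15:44711323-44711476, plus strand: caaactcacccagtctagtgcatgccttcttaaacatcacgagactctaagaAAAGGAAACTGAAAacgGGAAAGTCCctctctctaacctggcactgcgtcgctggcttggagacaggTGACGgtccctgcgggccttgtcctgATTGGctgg
TAP2, chr6:32838781-32838933, minus strand: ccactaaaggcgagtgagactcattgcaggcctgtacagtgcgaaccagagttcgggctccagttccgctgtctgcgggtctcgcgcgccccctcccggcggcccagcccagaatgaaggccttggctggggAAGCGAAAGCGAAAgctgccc
HLA-F, chr6:29723266-29723295, plus strand: atctccccagagTTTCTCTTtctctcccaa
TAP1, chr6:32853821-32853850, minus strand: gcaggcggccgcTTTCGATTTCGCTTtccc
TAPBP, chr6:33314079-33314108, minus strand: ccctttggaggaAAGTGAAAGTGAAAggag

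The ISRE-like core was found in all 7 windows, against 22.8% of the 35116 RefSeq promoter windows of the same length. The CRE half-site was in 4 of 7 (24.6% of all windows), the CCAAT box in 5 of 7 (34.6%) and the kB-like site in 4 of 7 (17.1%). In HLA-B the ISRE-like match began at position -155 and the CRE half-site at -106, counting the first transcribed base as 0, and in HLA-C they began at -151 and -105. In B2M, TAP1, TAP2 and TAPBP 2 ISRE-like matches overlapped each other. These matches describe the letters only. Since the letters were chosen after the sequences were seen, the shares do not measure enrichment.

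The libraries held 15830381 to 20545811 reads on genes. Values are FPKM, fragments per kilobase of merged exon divided by a scaling total for each library, so levels of different genes can be set side by side. Reads were computed back from these values. The reads on genes did not equal the scaling total. They made up 99.8 to 101.0% of it in SK-BR-3 and 92.8 to 95.4% in SK/EPI. In SK/EPI-siNC they made up 89.5 to 90.1%, and in SK/EPI-siBCRP 90.4 to 90.7%. ABCG2, the silenced gene, averaged 3.08 FPKM in SK/EPI-siBCRP against 33.0 in SK/EPI-siNC, and it was between 0.0220 and 0.0750 in SK-BR-3 against 34.1 on average in SK/EPI. The epithelial genes EPCAM, KRT8, KRT18 and KRT19 were high in all 4 groups (EPCAM 74.4 to 91.7 FPKM by group mean). Means in SK-BR-3 and SK/EPI were 765 and 902 FPKM for KRT8, 358 and 601 for KRT18 and 1651 and 509 for KRT19. GRB7, examined with them, averaged 112 FPKM in SK-BR-3 and 45.5 in SK/EPI. Means of ERBB2, which encodes HER2, were 659 FPKM in SK-BR-3 and 133 in SK/EPI, and CDH1 (E-cadherin) was under 1 FPKM in all libraries and listed at 0 in SK-BR-3.

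The order of the members differed between the lines. In SK-BR-3 cells HLA-E (89.0 FPKM) and B2M (83.5) stood at the top with overlapping libraries, followed by TAPBP (44.4), TAP1 (21.4), TAP2 (9.06) and HLA-C (8.19), whose libraries overlapped those of TAP2. HLA-B followed at 3.47 FPKM, NLRC5 at 0.217 and HLA-F at 0.0555. In SK/EPI cells B2M (123 FPKM) was above HLA-E (88.0), and HLA-B (15.1) overlapped HLA-C (13.7), with both above TAP2 (6.94). In SK/EPI-siNC cells HLA-B (121 FPKM) was second to B2M (165) and above HLA-E (98.5). HLA-B kept that place in SK/EPI-siBCRP cells, at 138 FPKM. All neighbours in these orders were apart except HLA-E and B2M, and TAP2 and HLA-C, in SK-BR-3, HLA-B and HLA-C in SK/EPI, and HLA-C and TAPBP, and TAP2 and NLRC5, in SK/EPI-siNC.

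**Figure D1:**
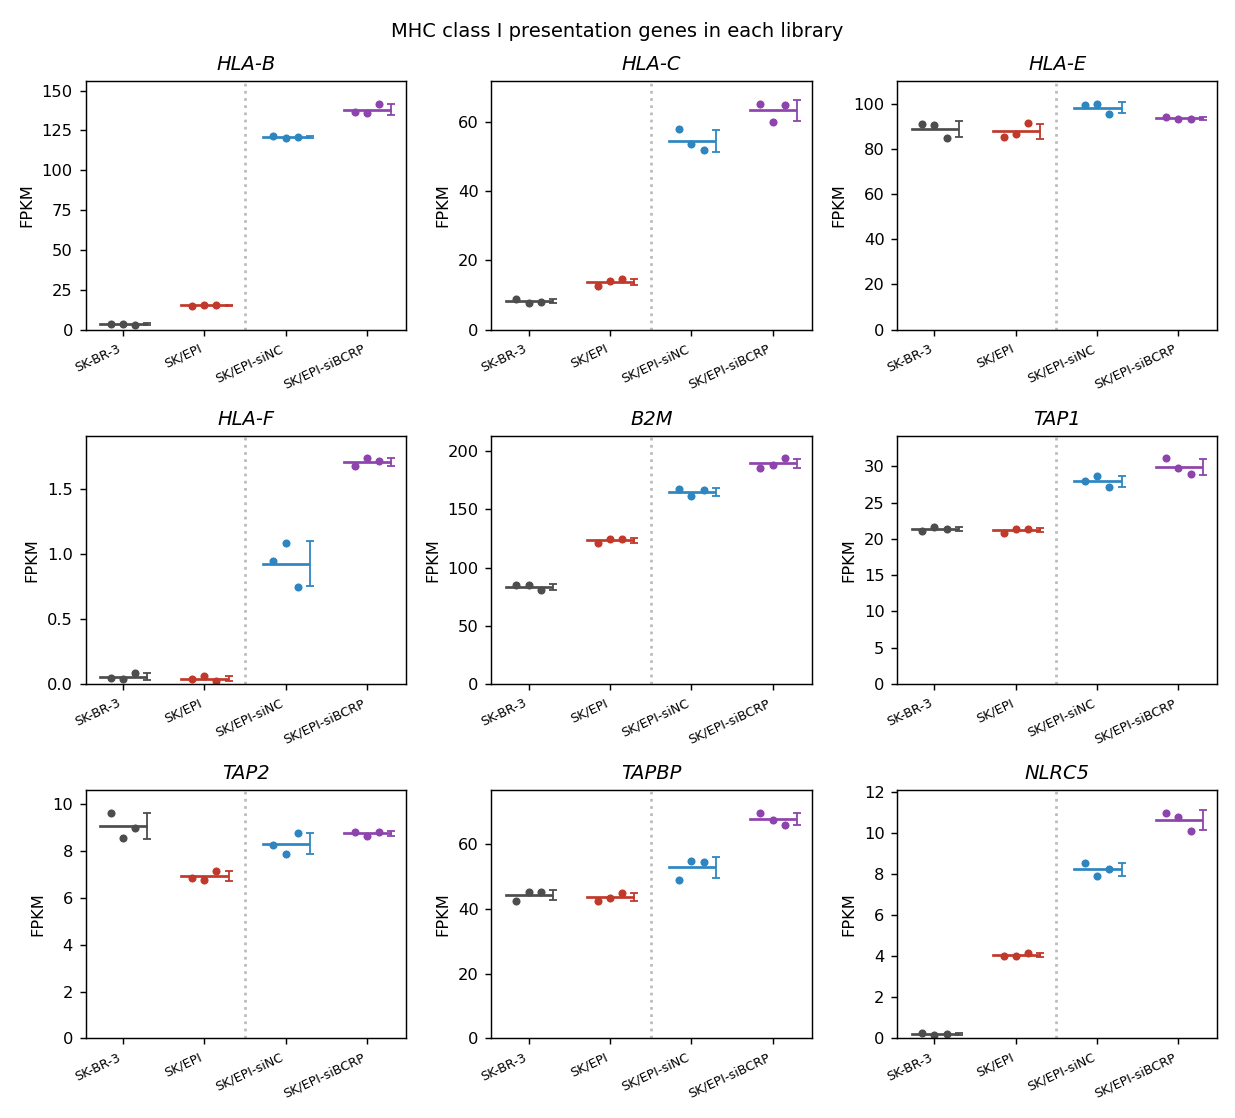
Level of each member in each library. The vertical axis is FPKM from 0 on a scale of its own for each gene, points are the 3 libraries of a group, horizontal lines are means and the bar beside them is 1 SD. The dotted line separates the 2 tables, which may have been normalized separately. HLA-B is lowest in SK-BR-3 (3.06 to 3.70 FPKM) and highest in SK/EPI-siBCRP (136 to 142), while HLA-E stays between 84.9 and 100.3 in all 12 libraries.

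The first comparison asked how the resistant line differs from its parental line. NLRC5, HLA-B, HLA-C and B2M were upregulated in SK/EPI cells compared with SK-BR-3 cells, TAP2 was downregulated, and HLA-E, TAP1 and TAPBP did not pass the test. Thus 4 of the 8 members tested rose and 1 fell, where 74.9% of all 15823 genes tested were called, 37.9% as higher and 37.0% as lower (limma on log2(FPKM + 1), Benjamini-Hochberg adjusted p under 0.05). At 5 of 8 called, the members were near this background, so the count alone says little about them, and the sizes below carry the description. The median log2 fold change of the 8 members was 0.28, beside 0.008 over all genes tested. This median lies in a gap between TAP1 (-0.01) and B2M (0.56), so no member changed by about that much. HLA-F, not tested, is left out of it. In bulk RNA, a change in the share of cells that express a gene and a change in RNA per cell cannot be told apart.

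NLRC5, the transactivator, had the largest change of the members. It was at 0.265, 0.179 and 0.208 FPKM in the SK-BR-3 libraries, from 52, 40 and 49 reads, and at 4.01, 4.03 and 4.17 FPKM in the SK/EPI libraries, from 903 to 973 reads. The groups lay far apart, with a ratio of means of 18.8. The log2 fold change was 2.06 (SE 0.054, 95% interval 1.93 to 2.19, limma adjusted p = 1.7e-08), on a scale of log2(FPKM + 1) that understates the change of low genes such as this one.

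Among the heavy chains, HLA-B had 3.64, 3.70 and 3.06 FPKM in SK-BR-3 and 14.5, 15.4 and 15.4 FPKM in SK/EPI. All SK/EPI libraries were above all SK-BR-3 libraries, and the means differed 4.36-fold (log2 fold change 1.85, SE 0.064, limma adjusted p = 7.7e-08). HLA-C, a classical heavy chain that also engages the KIR receptors of natural killer cells, had 8.77, 7.77 and 8.02 FPKM in SK-BR-3 and 12.7, 13.9 and 14.5 FPKM in SK/EPI. The groups were again apart, with a smaller ratio of 1.67 (log2 fold change 0.68, SE 0.060, limma adjusted p = 1.9e-05). HLA-E, the ligand of the NKG2A receptor, had 91.4, 90.7 and 84.9 FPKM in SK-BR-3 and 85.4, 86.9 and 91.7 FPKM in SK/EPI. Its groups overlapped, and the interval of its log2 fold change ran from -0.11 to 0.08 (limma adjusted p = 0.75). HLA-F, a nonclassical heavy chain, had 2 to 7 reads in each of these 6 libraries, at 0.0246 to 0.0847 FPKM, and was not tested, since a change was not detectable at this depth.

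B2M, the light chain that all these heavy chains share, had 84.7, 84.9 and 80.7 FPKM in SK-BR-3 and 121, 124 and 125 FPKM in SK/EPI. The groups were apart at a ratio of 1.48, and the log2 fold change was 0.56 (SE 0.033, limma adjusted p = 1.9e-06).

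The transporter subunits and tapasin did not rise as HLA-B and HLA-C did. TAP1 stood at 21.1, 21.7 and 21.4 FPKM in SK-BR-3 and at 20.9, 21.4 and 21.4 FPKM in SK/EPI, overlapping groups with a log2 fold change of -0.01 (95% interval -0.08 to 0.06). TAP2 had 9.65, 8.56 and 8.97 FPKM in SK-BR-3 and 6.87, 6.77 and 7.17 FPKM in SK/EPI. All SK/EPI libraries of TAP2 were below all SK-BR-3 libraries, and it fell by 0.34 on the log2 scale (SE 0.051, limma adjusted p = 4.4e-04). TAPBP had 42.5, 45.3 and 45.3 FPKM in SK-BR-3 and 42.4, 43.5 and 44.9 in SK/EPI, again overlapping, with an interval of -0.11 to 0.06. As a result, TAP2 per 100 FPKM of TAP1 was 42.4 ± 3.18 (SD, n = 3) in SK-BR-3 and 32.7 ± 0.969 (SD, n = 3) in SK/EPI.

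**Figure D2:**
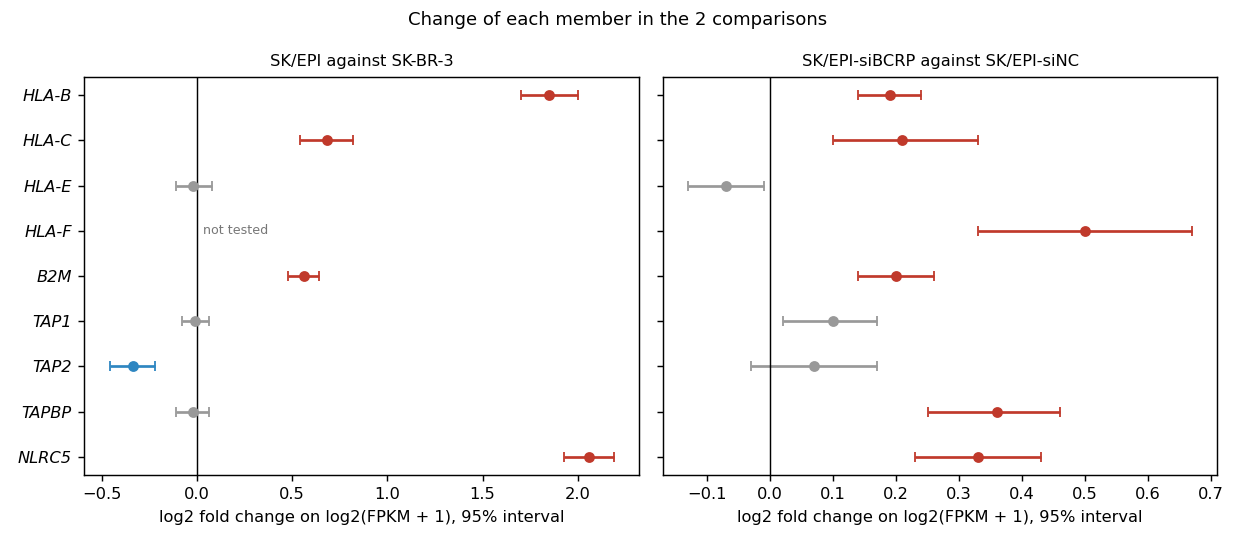
Log2 fold change of each member in the comparison of SK/EPI with SK-BR-3 (left) and of SK/EPI-siBCRP with SK/EPI-siNC (right), on the log2(FPKM + 1) scale and with axes of different range. Bars are 95% intervals from limma, red marks a rise and blue a fall past the adjusted threshold, and grey did not pass. NLRC5 (2.06) and HLA-B (1.85) stand apart on the left, and on the right the largest change is that of HLA-F (0.50).

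The second comparison asked what BCRP silencing changed in the resistant line. HLA-B, HLA-C, HLA-F, B2M, TAPBP and NLRC5 were upregulated in SK/EPI-siBCRP cells compared with SK/EPI-siNC cells, none was downregulated, and HLA-E, TAP1 and TAP2 did not pass. That is 6 of 9 members called, all higher, where 38.1% of the 16298 genes tested were called, 19.4% as higher and 18.7% as lower. The count was above that background, and no test of it was made. Genes with far fewer reads than most members are part of that background, and no share for genes of like depth was counted. The median log2 fold change of the 9 members was 0.20, beside -0.004 over all genes tested.

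HLA-F had the largest rise. It was at 0.949, 1.09 and 0.746 FPKM in SK/EPI-siNC, from 64 to 94 reads, and at 1.68, 1.74 and 1.72 FPKM in SK/EPI-siBCRP, from 142 to 170 reads. The groups were apart by a ratio of 1.85 (log2 fold change 0.50, SE 0.073, limma adjusted p = 0.0017). TAPBP had 49.1, 55.0 and 54.6 FPKM in SK/EPI-siNC and 69.9, 67.7 and 66.1 FPKM in SK/EPI-siBCRP. The lowest silenced library was above the highest control library, with a ratio of 1.28 (log2 fold change 0.36, SE 0.046, limma adjusted p = 9.2e-04). NLRC5 rose as well, from 8.54, 7.93 and 8.28 FPKM to 11.02, 10.8 and 10.1 FPKM, a ratio of 1.29 (log2 fold change 0.33, SE 0.043, limma adjusted p = 9.6e-04).

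HLA-B, HLA-C and B2M rose by similar ratios of 1.142, 1.162 and 1.149. HLA-B had 121, 120.3 and 121 FPKM in SK/EPI-siNC and 136, 136 and 142 FPKM in SK/EPI-siBCRP (log2 fold change 0.19, SE 0.023, limma adjusted p = 6.5e-04). HLA-C had 58.0, 53.5 and 52.0 FPKM in the control and 65.3, 59.9 and 64.8 FPKM in the silenced libraries (log2 fold change 0.21, SE 0.048, limma adjusted p = 0.012). Its groups were apart by less than 2 FPKM, and its call was lost when genes with few reads were kept in the fit (adjusted p = 0.050). B2M had 167, 161 and 166 FPKM in the control and 186, 188 and 194 FPKM in the silenced libraries (log2 fold change 0.20, SE 0.026, limma adjusted p = 9.3e-04).

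The 3 members that did not pass differed in how near they came. HLA-E had 99.5, 100.3 and 95.6 FPKM in SK/EPI-siNC and 94.4, 93.4 and 93.4 FPKM in SK/EPI-siBCRP. Its groups did not overlap, and its log2 fold change was -0.07 (95% interval -0.13 to -0.01, limma adjusted p = 0.054). It was called lower with TPM scaling (adjusted p = 0.013), with voom on the reads (0.010) and without SK/EPI-siNC replicate 3 (0.023). TAP1 had 27.9, 28.7 and 27.2 FPKM in the control and 31.2, 29.8 and 28.97 FPKM in the silenced libraries, also apart, with a log2 fold change of 0.10 (limma adjusted p = 0.056). It was called higher with voom (adjusted p = 0.037) and without SK/EPI-siBCRP replicate 3 (0.040). TAP2 had 8.29, 7.88 and 8.79 FPKM in the control and 8.80, 8.66 and 8.84 FPKM in the silenced libraries, overlapping groups with an interval of -0.03 to 0.17.

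The make-up of the heavy chains within a library does not depend on how libraries were scaled against each other. Of the summed FPKM of the 4 heavy chains described here, HLA-E made up 88.4% ± 0.361 (SD, n = 3) in SK-BR-3, 75.3% ± 0.571 (SD, n = 3) in SK/EPI, 35.8% ± 0.532 (SD, n = 3) in SK/EPI-siNC and 31.6% ± 0.569 (SD, n = 3) in SK/EPI-siBCRP. HLA-B made up 3.44%, 12.9%, 44.0% and 46.5% in the same order. Thus HLA-E dominated in the lines without transfection, whereas HLA-B was the largest part in both siRNA groups. Per 100 FPKM of B2M, HLA-B stood at 4.15 in SK-BR-3, 12.2 in SK/EPI, 73.4 in SK/EPI-siNC and 72.9 in SK/EPI-siBCRP, and its ranges in both siRNA groups overlapped. HLA-E per 100 FPKM of B2M was 106.6, 71.3, 59.8 and 49.5, with no overlap between any groups.

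**Figure D3:**
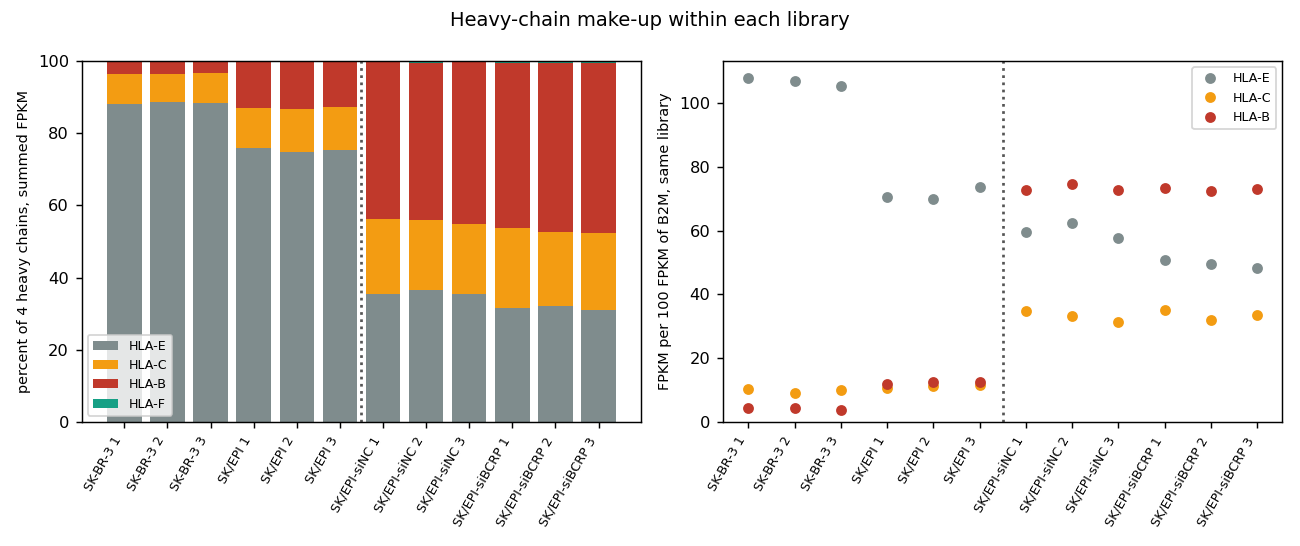
Heavy-chain make-up of each library. Left, percent of the summed FPKM of HLA-B, HLA-C, HLA-E and HLA-F. Right, FPKM of HLA-B, HLA-C and HLA-E per 100 FPKM of B2M. The dotted line separates the 2 tables. HLA-E averages 88.4% in SK-BR-3 and 31.6% in SK/EPI-siBCRP, and HLA-B 3.44% and 46.5%.

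SK/EPI and SK/EPI-siNC are the same line without and with a control transfection, but they come from different tables, which may have been normalized separately. Their levels are therefore given side by side with no test, and transfection and table cannot be told apart. HLA-B averaged 15.1 FPKM in SK/EPI and 121 FPKM in SK/EPI-siNC, 8.005 times as much. HLA-C averaged 13.7 and 54.5 FPKM, a ratio of 3.98, and NLRC5 4.07 and 8.25 FPKM, a ratio of 2.03. HLA-F went from 2 to 5 reads per library to 64 to 94. The other members differed less, at ratios of 1.34 for B2M, 1.32 for TAP1, 1.21 for TAPBP, 1.20 for TAP2 and 1.12 for HLA-E. The groups of all 9 members were apart, each with SK/EPI-siNC above SK/EPI. How many of all genes were apart in this way was not counted, so this count alone says little about the members. On the log2(FPKM + 1) scale HLA-B differed by 2.92 and HLA-C by 1.92, where the median of 15152 genes tested in both tables was 0.038 and 1.12% were higher and 0.904% lower by 1 or more. Of those genes 1 had a larger positive difference than HLA-B. It was OAS2, an interferon-induced antiviral enzyme, named here after its values were seen. HLA-C was exceeded by 17 genes.

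Proteasome subunits and peptidases supply the peptides. Of 7 genes of the immunoproteasome, the PA28 activator and the trimming peptidases 6 rose and none fell in SK/EPI cells compared with SK-BR-3 cells, where 37.9% of all genes tested were higher and 37.0% lower. The largest rise was in PSMB10, an interferon-induced catalytic subunit, from 9.35 to 23.7 FPKM (log2 fold change 1.26, SE 0.063), followed by PSMB8 (0.72), the peptidase ERAP1 (0.70) and PSMB9 (0.66). All 3 constitutive counterparts fell, PSMB7 by 0.78, PSMB5 by 0.23 and PSMB6 by 0.12 on the log2 scale (limma adjusted p = 5.3e-06, 0.0058 and 0.035). PSMB10 per 100 FPKM of PSMB7 was 13.2 ± 1.11 (SD, n = 3) in SK-BR-3 and 58.3 ± 2.50 (SD, n = 3) in SK/EPI. After BCRP silencing 2 of the 7 rose (ERAP1 by 0.22, PSME1 by 0.12) and PSMB9 fell by 0.17. Of all genes tested in that comparison 19.4% were higher and 18.7% lower. Of the constitutive subunits PSMB5 (0.14) and PSMB6 (0.11) rose and PSMB7 (0.09) did not pass. The calls of PSMB6 in the first comparison and of PSMB9 in the second were lost under several alternatives (adjusted p up to 0.44 and 0.11).

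Of the 5 chaperones and quality-control factors 1 rose and 4 fell in SK/EPI cells, where 74.9% of all genes tested were called. With BCRP silenced 2 rose and 1 fell, where 38.1% were called. In SK/EPI cells TAPBPL, the tapasin-related peptide editor, rose from 2.41 to 5.96 FPKM (log2 fold change 1.03), while calnexin (CANX, -0.57), UGGT1 (-0.53), PDIA3 (-0.25) and calreticulin (CALR, -0.10) fell, CALR with a call that was lost under 8 alternatives (adjusted p up to 0.53). After BCRP silencing TAPBPL (0.29) and PDIA3 (0.11) rose, CALR (-0.16) fell, and CANX (0.07) and UGGT1 (0.00) did not pass.

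Of 22 genes of interferon signalling and of the factors that bind class I promoters 12 rose and 4 fell in SK/EPI cells, 16 of 22 called and near the background of 74.9%. IFNGR1, the ligand-binding chain of the interferon-gamma receptor, rose from 10.98 to 96.9 FPKM (log2 fold change 3.03, SE 0.040), CIITA, the class II counterpart of NLRC5, from 0.125 to 3.18 FPKM (1.89) and IRF9 from 0.448 to 3.00 FPKM (1.47). NFYB, a subunit of the CCAAT-binding factor NF-Y, fell by 1.44 on the log2 scale. IFNGR2, the other chain of the interferon-gamma receptor, named after its values were seen, fell from 4.36 to 1.37 FPKM (log2 fold change -1.18, limma adjusted p = 2.5e-07). After BCRP silencing 5 rose and 9 fell, where 38.1% of all genes tested were called, 19.4% as higher and 18.7% as lower. NFKB1 fell by 0.85, from 9.84 to 5.02 FPKM, NFYB by 0.47 and IFNGR1 by 0.32, and ATF1 rose by 0.38. The interferon genes themselves were low. None of the 7 was tested in the first comparison, and IFNG was listed at 0 in all libraries of SK/EPI background. In the second comparison IFNE fell (log2 fold change -0.25, limma adjusted p = 0.040, up to 0.20 under alternatives), and IFNL1 had a log2 fold change of 0.26 (adjusted p = 0.17, and 0.012 without SK/EPI-siBCRP replicate 1).

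Of 8 negative regulators 2 rose and 3 fell in SK/EPI cells, 5 of 8 called beside 74.9% of all genes tested. MARCH9, a ubiquitin ligase, rose by 0.98, and TMEM127 fell by 0.75, EZH2, the methyltransferase of Polycomb complex 2, by 0.54 and its partner EED by 0.43. After BCRP silencing 3 rose and 4 fell, 7 of 8 called beside 38.1% of all genes tested. The largest changes were those of EZH2 (-0.31), SUSD6 (-0.26), SUZ12 (0.23) and TMEM127 (0.21). Of 9 other class I and class I-like chains 3 rose and 2 fell of 6 tested in SK/EPI cells, 5 of 6 called beside the same 74.9%. ULBP3, a ligand of the NKG2D receptor, fell from 2.54 to 0.379 FPKM (log2 fold change -1.36), and ULBP2 fell by 0.61, while MICB, another NKG2D ligand, rose from 0.0538 to 0.630 FPKM (0.63), and CD1D, which presents lipids, was at least 7.19-fold higher against the value of 3 reads per library. After BCRP silencing 2 of 5 tested were called beside the same 38.1%, MICB (0.42) and MICA (0.24), both higher. MICA rested on few reads, at most 5 in any SK/EPI-siNC library and 12 or 13 in those of SK/EPI-siBCRP. It thus entered the fit through the silenced group alone. In the first comparison MICB entered through SK/EPI alone, with 28 to 37 reads against at most 5 in any library of the parental line. HLA-G was listed at 0 in all 12 libraries. Over all 7 lists together 40 of 51 tested genes were called in the first comparison (24 higher, 16 lower), a share near the background of 74.9%, and 32 of 52 in the second (16 higher, 16 lower), above its 38.1%.

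**Figure D4:**
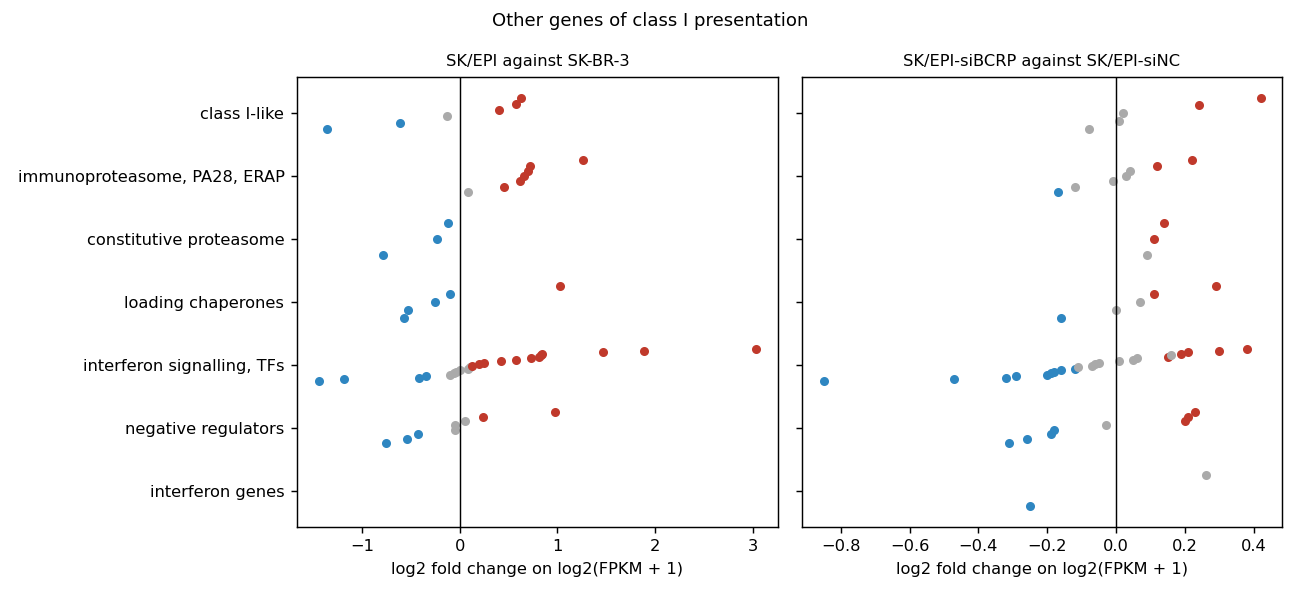
Log2 fold change of each tested gene of the 7 lists, on the log2(FPKM + 1) scale, in SK/EPI against SK-BR-3 (left) and SK/EPI-siBCRP against SK/EPI-siNC (right), with axes of different range. Each point is 1 gene, red if higher, blue if lower and grey if not past the adjusted threshold. On the left 6 of 7 immunoproteasome and trimming genes are red and all 3 constitutive subunits blue.

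Around the 7 members on chromosome 6, 91 other genes with a start within 500 kb were tested in the first comparison, and 34 were higher and 38 lower (79.1% called, median log2 fold change -0.03). The largest rises were those of the class II genes HLA-DRA (0.0137 to 77.5 FPKM, at least 580-fold against 3 reads per library) and HLA-DPA1 (0 to 18.8 FPKM, at least 632-fold), and the largest falls those of B3GALT4 (-1.70) and FLOT1 (-1.52). In the second comparison 18 of 97 were higher and 18 lower (37.1% called). Both shares were near the background. TNF (0.87) and IER3 (0.84) had the largest rises, and HLA-DRA (-0.89) and HLA-DMA (-0.80) the largest falls. HLA-DRA thus rose with HLA-B in SK/EPI cells and fell after BCRP silencing, where HLA-B rose.

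The genes whose profile lay nearest to the median profile of the members over the 12 libraries, each centred within its table, were MCM3, NR1H3, HSBP1, TRIB3 and CTPS1, at a root mean square distance of 0.026 to 0.031 on the log2 scale (median of 15144 genes 0.190). That median profile moved little, since the members moved unequally. Nearest to HLA-B alone, centred over all 12 libraries and chosen after values were seen, were OAS2 (0.193), IFI44L (0.314), both interferon-induced, and ICAM5 (0.345), against a median of 2.07 over 15151 genes. OAS2 averaged 0.136 FPKM in SK-BR-3, 3.23 in SK/EPI, 33.8 in SK/EPI-siNC and 27.8 in SK/EPI-siBCRP.

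Leukocytes also express these genes at high levels, so their markers were examined. Without CD14, the 7 other leukocyte markers summed to 0.567 to 2.23 FPKM over all libraries, each was under 1 FPKM in every library, PTPRC, the pan-leukocyte gene, was at most 0.0669, and MS4A1 was listed at 0 throughout. CD14 averaged 0.513 FPKM in SK-BR-3, 27.4 in SK/EPI, 6.82 in SK/EPI-siNC and 7.97 in SK/EPI-siBCRP. The 5 fibroblast markers summed to at most 1.66 FPKM. Of the 4 endothelial markers 3 were under 1 FPKM, and CDH5 averaged 6.77 FPKM in SK-BR-3, 27.5 in SK/EPI, 13.8 in SK/EPI-siNC and 22.2 in SK/EPI-siBCRP. The share of reads on mitochondrial genes was 4.18 to 4.23% in SK-BR-3, 5.10 to 5.38% in SK/EPI, 3.58 to 3.68% in SK/EPI-siNC and 3.73 to 3.84% in SK/EPI-siBCRP, with no overlap between groups. The part of CD14, CDH5 and this share in the results was not tested.

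Some values rest on exons shared with other genes. In GENCODE 29, HLA-B (chr6:31269491-31357188, minus strand) shares 18.9% of its exon length with other genes, 17.8% with AL671883.2 on the opposite strand, and 1.40% of HLA-C (chr6:31268749-31272130, minus strand) lies within HLA-B. HLA-F shares 28.5%, TAP2 32.3% (AL669918.1 on the same strand) and TAP1 9.49% (PSMB8-AS1 on the opposite strand), whereas HLA-E, B2M, TAPBP and NLRC5 share none. The strand setting and the treatment of reads with several positions are not given in the sources used here, so the split of reads between these pairs is uncertain.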

How the data were processed

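Poly-A selected RNA of the 12 libraries was sequenced by NovoGene. The authors deposited 2 tables of FPKM, one for SK-BR-3 and SK/EPI and one for both siRNA groups. The submitters' processing notes name HISAT2 2.0.5, featureCounts 1.5.0-p3, DESeq2 1.16.1 and hg38, with no role or order. The tables state no unit. Each value times the merged exon length in GENCODE 29 was a whole multiple of 1 step per library within 0.01 read, and the sums per library (253312 to 288028) varied, as FPKM do and TPM do not. Reads per gene came from these steps, and intervals and floors based on 3 reads cover counting error only.

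A gene entered the fit of its table if 3 or more libraries had the equivalent of 10 reads at the median depth and all libraries together had 15. Each table was fitted separately on log2(FPKM + 1) with the group alone (limma 3.58.1 in R 4.3.3, eBayes with trend), with Benjamini-Hochberg adjustment over all tested genes at 0.05. Ratios are of mean FPKM. The steps were tested on simulated data. The members, lists and rules for naming genes were chosen with earlier results of these data known. All 9 members were named, and of each list up to 4 called genes with the largest change per comparison, every gene of lists of 5 or fewer, the 5 genes nearest in profile and the 2 largest rises and falls near the members. Alternatives were a pseudocount of 0.1, no filter, TPM scaling, median-of-ratios scaling, a replicate block, voom on reads and leaving out each library. Other steps used Python 3.11.15, numpy 2.4.6, pandas 2.3.3 and matplotlib 3.10.9.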

Additional observations from a re-analysis of the deposited data

How the results depend on the processing

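Of 204 values of single members under the alternatives, 198 kept their side of the threshold, 5 became significant, 1 lost significance and no called change reversed. The 6 exceptions all concern BCRP silencing and are given above for HLA-C, HLA-E and TAP1. Changes that were not called could switch sign, as those of HLA-E, TAP1 and TAPBP in SK/EPI against SK-BR-3 did with voom. The count of members called in SK/EPI against SK-BR-3 was 5 under every alternative. In SK/EPI-siBCRP against SK/EPI-siNC it was 6 with a pseudocount of 0.1 and with median-of-ratios scaling, 5 without the filter, 7 with TPM scaling and 8 with voom. Voom, which scaled to the reads on genes, called 6800 genes higher and 5328 lower in the first comparison, beside 6002 and 5852 in the main fit. Leaving out 1 library at a time gave 5 members in the first comparison and 6 to 7 in the second, and 37 to 39 and 24 to 30 genes over the 7 lists, beside 40 and 32. Deviations of same-numbered libraries correlated at -0.053 to -0.002 in the first table and 0.008 to 0.059 in the second. Libraries of different numbers correlated at -0.013 to 0.057 and -0.057 to 0.029. Correlations this small cannot decide whether libraries of the same number were prepared in pairs. With the number as a replicate block the calls were 5 and 6 members, and 39 and 27 list genes. Over all 176 results of named genes, 2112 values under the alternatives gave 99 lost and 31 gained calls and no reversal of a called change. Among list genes named above, calls of CALR and PSMB6 (first comparison) and of PSMB9 and IFNE (second) were lost without most single libraries, ERAP1 was lost without the filter (adjusted p = 0.053), CANX was gained with voom (0.017) and without SK/EPI-siBCRP replicate 1 (0.032), and PSMB7 without SK/EPI-siNC replicate 1 (0.013). HLA-F in the first comparison, with at most 7 reads per library, and the interferon genes are limited by depth.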
